A study of Homo sapiens with 6 samples.

Results

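Netrins are secreted guidance proteins, and their receptors of the UNC5 and DCC families are known as dependence receptors: bound by ligand they steer cell migration and survival, and without ligand they can signal cell death. The 9 genes described here were picked by symbol from a table of 60612 genes and cover that system. They are the receptors UNC5A, UNC5B, UNC5C, DCC and NEO1 (neogenin), the ligands NTN1 and NTN4, the neogenin-binding co-receptor RGMB, and DAPK1, a calmodulin-regulated kinase through which unliganded UNC5B is known to signal death. UNC5B led the choice because its RNA was higher with 6-shogaol in these same libraries, so the differences between the groups in these 9 genes are given as a description and support no statement about the group of genes.

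The RNA came from U251, a human glioma cell line with astrocytic features, and RNA sequencing measured transcripts per gene in 3 libraries of cells given 6-shogaol for 24 h and 3 libraries of cells without it. 6-shogaol is one of the pungent compounds of ginger, the labels write its dose as 60 μm, and both groups are labelled as WT and were grown in the same serum-supplemented medium. The study set out to find effects of the compound on glioma cells. All libraries came from 1 cell line, and nothing in the labels says that replicates were separate cultures, so errors and p-values cover only the scatter among these libraries, and part of it may be technical.

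The 6-shogaol libraries held 43516840 to 55225898 counts and the control libraries 52132767 to 60018999. The 10 markers of the labelled cell type differed widely in level. VIM lay between 5729 and 9767 CPM (counts scaled to library size) with 6-shogaol and between 6809 and 6960 CPM in controls. SOX2 lay between 240.6 and 257 CPM with 6-shogaol and between 289 and 327 CPM without it. Others were low: S100B lay at 0.235 to 0.712 CPM with 6-shogaol and 0.307 to 1.34 CPM in controls. AQP4 lay at 0.145 to 0.322 CPM with 6-shogaol and 0.317 to 0.441 CPM in controls. SLC1A3 lay at 4.29 to 10.4 CPM with 6-shogaol and 5.76 to 9.94 CPM in controls. GFAP, the astrocytic filament gene, was low and fell, with 8.88 ± 0.424 CPM with 6-shogaol and 27.3 ± 5.73 CPM in controls (SD, n = 3 each; edgeR adjusted p = 0.00655). Of the 10 glial markers 3 fell, GFAP, FABP7 and NES, and 0 rose, where 1.71% of all genes tested fell and 1.67% rose. FABP7 lost the call in each fit without 1 library and NES in all of these but that without 6-shogaol replicate 1. The part of this in the netrin gene values was not tested. The 12 markers of endothelial, blood, epithelial and neuronal cells summed to between 104 and 113 CPM with 6-shogaol and between 105 and 112 CPM in controls, with the T cell gene CD3E at 0 in every library. Most of that sum came from the neuronal gene SYT1, at 57.8 to 70.6 CPM with 6-shogaol and 48.7 to 50.3 CPM in controls, and the epithelial keratin gene KRT18, at 31.9 to 45.6 CPM with 6-shogaol and 45.2 to 51.7 CPM in controls, which lay on opposite sides and were not called (edgeR adjusted p = 0.145 and 0.155). The endothelial gene PECAM1 was at 0 in all 6-shogaol libraries and in all controls but 1, where it had 8 counts. The endothelial cadherin CDH5 was the 1 marker of this list that fell (40, 27 and 36 counts with 6-shogaol, against 129, 137 and 133 in controls), and it lost the call without 6-shogaol replicate 2 or any 1 of the controls. 6-shogaol replicate 1 stood apart from its group on the first and second principal components of all genes tested. On the first (28.0% of variance) it scored -11.5, against -46.0 and -53.3 in replicates 2 and 3 and 29.4 to 44.8 in controls. On the second (20.6% of variance) it scored 61.8, against scores from -33.9 to 22.6 elsewhere.

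For the members with a promoter in the RefSeq table of GRCh38.p14 (7 of 9, UNC5B and NTN1 being the members without an entry), the window from 250 bases before to 50 bases after the annotated start was searched on both strands for 8 short elements. The 250 bases before the start are shown for NTN4, UNC5C and RGMB, the members with an entry whose levels did not overlap between the groups, 5′ to 3′ on the strand of the gene. Capitals mark a match to one of the elements.
NTN4: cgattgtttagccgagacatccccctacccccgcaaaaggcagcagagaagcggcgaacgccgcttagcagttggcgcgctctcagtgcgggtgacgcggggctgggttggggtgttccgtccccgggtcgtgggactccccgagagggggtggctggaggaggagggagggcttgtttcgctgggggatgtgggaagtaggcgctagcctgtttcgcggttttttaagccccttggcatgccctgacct
UNC5C: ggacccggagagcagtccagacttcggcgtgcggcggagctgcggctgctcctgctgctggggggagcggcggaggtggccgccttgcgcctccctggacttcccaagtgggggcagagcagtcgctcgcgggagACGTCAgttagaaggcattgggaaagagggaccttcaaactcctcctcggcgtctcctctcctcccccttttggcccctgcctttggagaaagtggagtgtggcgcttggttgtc
RGMB: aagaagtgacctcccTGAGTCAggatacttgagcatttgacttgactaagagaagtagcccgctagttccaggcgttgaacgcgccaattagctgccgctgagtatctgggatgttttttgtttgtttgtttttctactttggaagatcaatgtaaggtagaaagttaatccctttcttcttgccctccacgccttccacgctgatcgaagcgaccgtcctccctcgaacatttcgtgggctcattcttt
The NTN4 stretch lies at chr12:95791156-95791405 on the minus strand, that of UNC5C at chr4:95548974-95549223 on the minus strand and that of RGMB at chr5:98768382-98768631 on the plus strand. Starts here are those of RefSeq and can differ from the deposited gene spans. The deposited UNC5C gene begins at 95549206, so most of its printed stretch, including the capitals, lies inside that gene span. The capitals in UNC5C are a cAMP response element core (TGACGT, read here on the opposite strand), 115 to 110 bases before the start, found in 8.32% of 27305 promoters of this length. Those in RGMB are an AP-1 element (TGANTCA), 235 to 229 bases before the start, found in 7.76% of promoters. NTN4 had no match before its start and a heat shock element pair (GAANNTTC) at bases 28 to 35 after it, reading GAATGTTC, found in 6.87% of promoters. UNC5A held 4 SP1 boxes (GGGCGG), DAPK1 held 2 and NEO1 held 1, an element found in 44.6% of promoters, and DCC had no match. The DAPK1 window, 87497617 to 87497916 on the plus strand, lies wholly after the deposited gene start at 87497228. Most of the NEO1 window, 73051652 to 73051951, lies after its deposited start at 73051710. Of the other elements searched, the C/EBP-ATF response element (TGATGNAA), the antioxidant response element core (TGACNNNGC), the hypoxia response element core (ACGTG) and the TATA box (TATAAA), found in 3.67%, 13.6%, 21.6% and 12.0% of promoters, had 0 matches in these 7 windows. CpG pairs numbered 44 in the window of UNC5A and 15 in that of DCC, against 21 in NTN4, 22 in UNC5C and 12 in RGMB, with a median of 14 over all promoters. The letters describe the windows only and were not tied to binding in these cells.

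UNC5B was the receptor that differed most between the groups. Its gene lies on the plus strand of chromosome 10, 71212570 to 71302864 (ENSG00000107731; GRCh38). In FPKM (fragments per kilobase of gene and per unit of sequencing depth), the authors' length-scaled level, UNC5B stood at 5.79, 7.63 and 5.26 in 6-shogaol replicates 1, 2 and 3, and at 2.09, 2.24 and 2.08 in control replicates 1, 2 and 3. Every treated library lay above every control, replicate 2 was the highest of its group on either side, and the treated libraries spread more widely. The counts behind these levels were 2575, 3124 and 1844 with 6-shogaol and 885, 1073 and 1007 in controls. In edgeR's quasi-likelihood fit over 19279 genes the log2 fold change was 1.52 (SE 0.15), a 2.87-fold higher level. Of 11722 genes averaging 5 CPM or more it had the 17th largest log2 fold change, and of all 19279 genes tested the 176th. UNC5B was chosen for this rise, so these ranks are a description only. The value stayed between 1.33 and 1.63 when any library was left out. In bulk RNA, more cells carrying UNC5B transcripts and more of them per cell cannot be told apart.

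UNC5C, the other UNC5 receptor with appreciable RNA (chromosome 4, 95162504 to 95549206, minus strand), was slightly lower with 6-shogaol. It stood at 7.66, 7.57 and 7.53 FPKM with 6-shogaol and at 8.27, 8.60 and 8.75 FPKM in controls. The groups did not overlap, and the difference was small beside that of UNC5B, with a log2 fold change of -0.19 (SE 0.06) that did not pass in edgeR over all genes (adjusted p = 0.131). UNC5A (chromosome 5, 176810519 to 176880898), a mostly neuronal receptor, had 0 counts in all 6 libraries, which allows up to 0.05 to 0.0689 CPM per library (3 counts, covering counting error only).

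UNC5B held a larger part of the RNA of these 3 UNC5 receptors with 6-shogaol. UNC5B made up 43.1%, 50.2% and 41.1% of the summed UNC5A, UNC5B and UNC5C FPKM in 6-shogaol replicates 1, 2 and 3, and 20.2%, 20.7% and 19.2% in control replicates 1, 2 and 3. The ranges lay far apart, with a mean share of 44.8% ± 4.79 with 6-shogaol and 20.0% ± 0.76 in controls (SD, n = 3 each). UNC5C had on average 1.25 ± 0.229 times the FPKM of UNC5B with 6-shogaol and 4.0 ± 0.192 times in controls. In 6-shogaol replicate 2 that ratio was 0.991, so the receptors stood about level there. UNC5D, the fourth UNC5 receptor and not one of the 9 genes, stood at 0.419, 0.474 and 0.397 FPKM in 6-shogaol replicates 1, 2 and 3 and at 0.222, 0.301 and 0.212 FPKM in control replicates 1, 2 and 3. Its groups did not overlap, and its log2 fold change of 0.79 (SE 0.20) did not pass in edgeR (adjusted p = 0.08). With UNC5D counted in the family, UNC5B made up 43.5% ± 4.64 with 6-shogaol and 19.6% ± 0.671 in controls (SD, n = 3 each).

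DCC and NEO1, the other family of netrin receptors, had little or no RNA. DCC (chromosome 18, 52340197 to 53535903), a receptor first known as a gene deleted in colorectal cancer, had 1 count in 6-shogaol replicate 2 and 0 in the 5 other libraries, so no fold change is given. NEO1, which binds netrins and the repulsive guidance molecules (chromosome 15, 73051710 to 73305205), stood at 0.331, 0.269 and 0.243 FPKM with 6-shogaol and at 0.192, 0.238 and 0.373 FPKM in controls. Its groups overlapped, control replicates 1 and 3 being the lowest and the highest of all libraries. The log2 fold change was 0.05 (SE 0.28), and it changed sign between fits without 1 library, from -0.13 to 0.35.

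**Figure D1:**
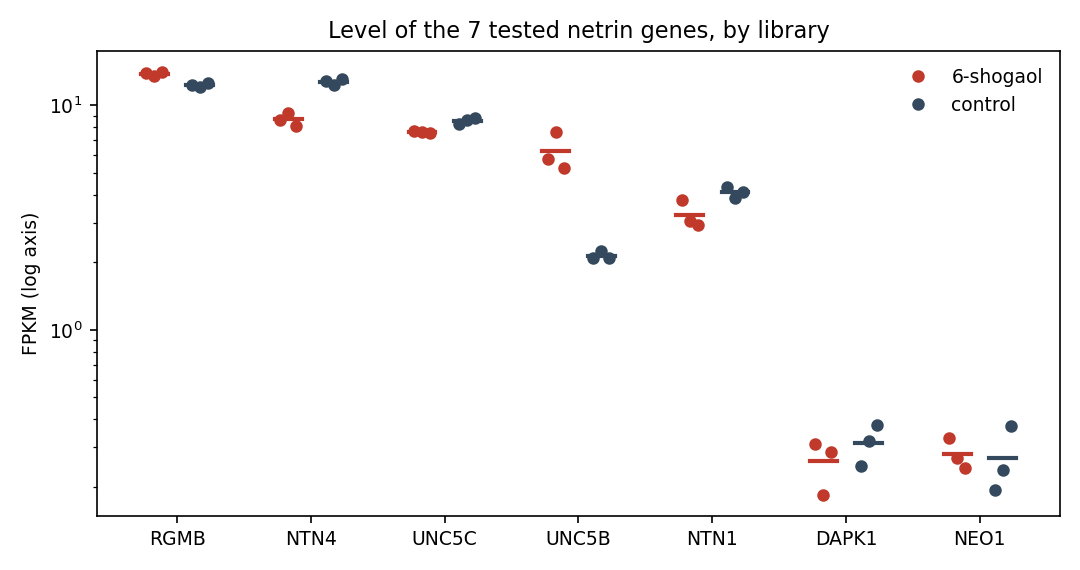
FPKM on a log axis for the 7 netrin genes that passed the low-count filter, with 1 point per library, replicates 1 to 3 from left to right, and a line at the group mean (6-shogaol left in red, control right in dark blue). UNC5B sat at 5.26 to 7.63 with 6-shogaol and at 2.08 to 2.24 in controls, while NTN4 sat at 8.12 to 9.22 with 6-shogaol and at 12.3 to 13.1 in controls.

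Both netrin ligands were lower with 6-shogaol, NTN4 more so. NTN4, a laminin-related netrin of basement membranes (ENSG00000074527, chromosome 12, 95657807 to 95791189, minus strand), stood at 8.61, 9.22 and 8.12 FPKM in 6-shogaol replicates 1, 2 and 3 and at 12.8, 12.3 and 13.1 FPKM in control replicates 1, 2 and 3. All treated libraries lay below all controls, and the gap between the groups was wider than the range within either. The log2 fold change was -0.58 (SE 0.08), a 1.5-fold lower level. NTN1, the classical netrin and the ligand of UNC5B and DCC (ENSG00000065320, chromosome 17, 9021510 to 9244000), stood at 3.78, 3.05 and 2.94 FPKM with 6-shogaol and at 4.31, 3.87 and 4.09 FPKM in controls. Its groups did not overlap but nearly met, 6-shogaol replicate 1 being close to control replicate 2. The log2 fold change was -0.35 (SE 0.11, edgeR adjusted p = 0.132 over all genes), and the adjusted p was 0.048 without 6-shogaol replicate 1.

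Set side by side per length, the summed UNC5 receptors and the summed netrins NTN1 and NTN4 changed order. Summed FPKM of UNC5A, UNC5B and UNC5C was 13.8 ± 1.24 with 6-shogaol and 10.7 ± 0.27 in controls, and that of NTN1 and NTN4 was 11.9 ± 0.736 with 6-shogaol and 16.8 ± 0.587 in controls (SD, n = 3 each). The receptor sum divided by the ligand sum was 1.09, 1.24 and 1.16 in 6-shogaol replicates 1, 2 and 3 and 0.604, 0.67 and 0.629 in control replicates 1, 2 and 3. The receptor sum thus exceeded the ligand sum in each treated library and lay below it in each control. The order in controls depends on counting NTN4. Beside NTN1 alone the receptor sum was the higher in every library. With 6-shogaol it was 12.8 to 15.2 FPKM against 2.94 to 3.78 for NTN1, and in controls 10.4 to 10.8 against 3.87 to 4.31. For the single pair UNC5B and NTN1 the ratio was 1.94 ± 0.505 with 6-shogaol and 0.524 ± 0.0493 in controls. These are RNA ratios of genes picked with the UNC5B difference known, and protein was not measured.

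**Figure D2:**
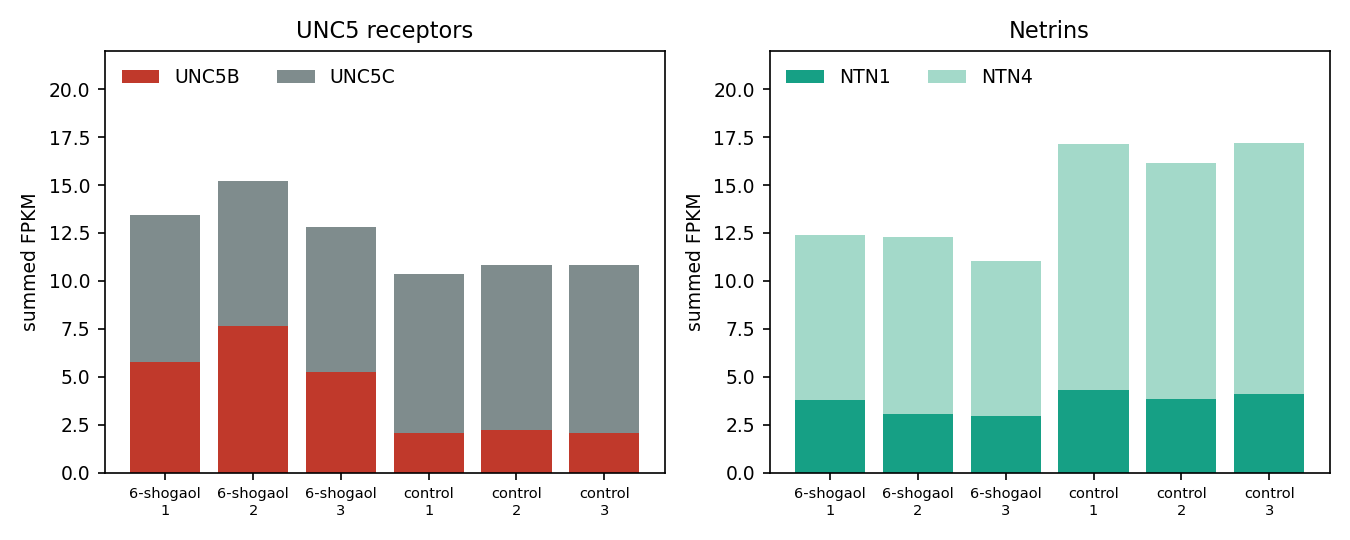
Stacked bars of FPKM per library for the UNC5 receptors (left, UNC5B in red and UNC5C in grey) and the netrins (right, NTN1 in dark green and NTN4 in light green), with the 6-shogaol libraries left of the controls. The receptor bars reach 12.8 to 15.2 with 6-shogaol and 10.4 to 10.8 in controls, and the netrin bars 11.1 to 12.4 with 6-shogaol and 16.2 to 17.2 in controls.

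RGMB, a membrane-anchored repulsive guidance molecule that binds neogenin and bone morphogenetic proteins (BMPs), was among the most abundant of the 9 genes in both groups (ENSG00000174136, chromosome 5, 98768650 to 98796494). It stood at 13.9, 13.5 and 14.1 FPKM with 6-shogaol and at 12.4, 12.1 and 12.5 FPKM in controls. The groups did not overlap, but the log2 fold change was only 0.15 (SE 0.06, edgeR adjusted p = 0.22 over all genes). In the gene annotation GENCODE release 29, whose span of RGMB differs from the deposited one, RGMB shares 5.44% of its exon length with RGMB-AS1. This antisense gene had 234, 192 and 205 counts with 6-shogaol and 112, 192 and 179 in controls. A further 40.2% is shared with the antisense gene AC008522, which had 12, 5 and 27 counts with 6-shogaol and 5, 82 and 66 in controls. The strand setting of the counting was not given in the sources used here, so reads of these partners cannot be told apart from those of RGMB, which had 4794 to 6012 counts with 6-shogaol and 5079 to 5895 in controls. UNC5B-AS1, the antisense neighbour of UNC5B, had 8 counts in each 6-shogaol library and 0, 0 and 12 in the controls and shares none of the UNC5B exon length. AC106881, which shares 0.73% of the UNC5C exon length, had 130, 89 and 90 counts with 6-shogaol and 156, 174 and 90 in controls.

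DAPK1, the death-associated kinase below UNC5B (chromosome 9, 87497228 to 87708634), had little RNA and did not separate the groups. It stood at 0.31, 0.184 and 0.286 FPKM with 6-shogaol and at 0.247, 0.319 and 0.375 FPKM in controls. The groups overlapped, and the log2 fold change was -0.29 (SE 0.25). DAPK1 had 182, 101 and 133 counts with 6-shogaol and 138, 203 and 238 in controls, and the difference was within the spread between libraries.

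Ordered by mean FPKM, the genes with 6-shogaol ran from RGMB (13.8 ± 0.283) through NTN4 (8.65 ± 0.552), UNC5C (7.58 ± 0.0639), UNC5B (6.23 ± 1.24) and NTN1 (3.26 ± 0.455) to NEO1 (0.281 ± 0.0454) and DAPK1 (0.26 ± 0.0668). In controls the order was NTN4 (12.8 ± 0.415), RGMB (12.3 ± 0.23), UNC5C (8.54 ± 0.244), NTN1 (4.09 ± 0.223), UNC5B (2.14 ± 0.0903), DAPK1 (0.314 ± 0.0646) and NEO1 (0.268 ± 0.0939) (SD, n = 3 in each group). Neighbours in these orders whose libraries overlapped were UNC5C and UNC5B, and NEO1 and DAPK1, with 6-shogaol, and NTN4 and RGMB, and DAPK1 and NEO1, in controls. UNC5B was above NTN1 in every 6-shogaol library and below it in every control, and RGMB was above NTN4 in every 6-shogaol library.

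Of the 9 genes 7 passed the filter on low counts, UNC5A and DCC being the exceptions. At an adjusted p under 0.05 in edgeR over all genes, 2 of these 7 were called, UNC5B higher and NTN4 lower, where 3.38% of the 19279 genes tested were called, 1.67% higher and 1.71% lower. Libraries of the groups did not overlap for 5 of the 7, and for 27.9% of all genes. Nothing is read from these counts, since the same contrast led to the choice of the genes. UNC5B was called in each of the 6 fits without 1 library, and NTN4 was called without 6-shogaol replicate 1 or 2 and lost the call without 6-shogaol replicate 3 or any 1 of the controls.

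**Figure D3:**
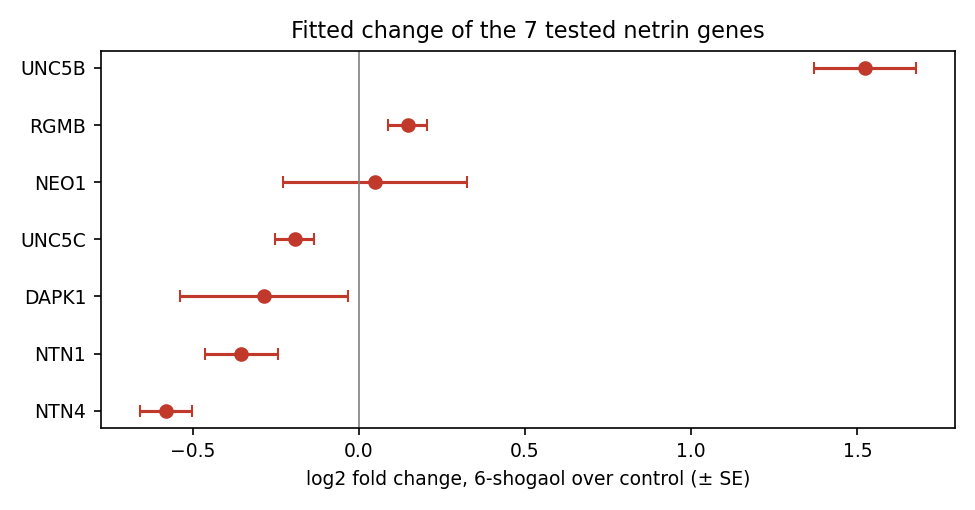
Log2 fold change of 6-shogaol over control from edgeR for the 7 tested netrin genes, with bars of 1 standard error. UNC5B lies at 1.52, apart from the 6 others, which lie between -0.58 (NTN4) and 0.15 (RGMB).

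Genes around these receptors were taken from 5 lists by role, in which 7 of 127 tested genes were called (5.51%), against 3.38% of all genes tested. Of 26 tested partners of netrins and their receptors, 1 fell and 0 rose (3.85%, near the 3.38% of all genes), with a median log2 fold change of -0.01 (all genes: 0.00). The one that fell was ITGB4, the beta subunit of a laminin-binding integrin that can also bind NTN1 (chromosome 17, 75721328 to 75757818). It had 563, 513 and 441 CPM with 6-shogaol and 1044, 1044 and 1130 CPM in controls, so that every treated library lay far below every control. Its log2 fold change was -1.08 (SE 0.10, edgeR adjusted p = 0.00635), and it was called in all 6 fits without 1 library. Its usual partner ITGA6 had 77.3 ± 17.2 CPM with 6-shogaol and 66.4 ± 18.1 CPM in controls and was not called. The membrane-anchored netrin NTNG1 had 29.8 ± 0.6 CPM with 6-shogaol and 31.3 ± 1.04 CPM in controls, while DSCAM, a further netrin receptor, had at most 4 counts in any library and its relative DSCAML1 had 0.

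Below the receptors, the genes of DCC and UNC5 signalling, which include kinases, adaptors, small GTPases and actin regulators, had 0 calls among 34 tested in edgeR. At unadjusted p under 0.05 edgeR had 4 higher and 5 lower (20.4% of all genes), DESeq2 called 3 lower (12.0% of all genes it tested) and limma on FPKM called 0 (6.04% of all genes it tested). TUBB3, a neuronal tubulin that binds DCC and UNC5 receptors, had 252 ± 85.6 CPM with 6-shogaol and 167 ± 55.7 CPM in controls, with overlapping groups. VASP, which elongates actin filaments, had 69.8 ± 15.7 CPM with 6-shogaol and 98.3 ± 0.535 CPM in controls, without overlap (log2 fold change -0.49, SE 0.16, edgeR adjusted p = 0.144).

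Among 30 genes of death signalling below unliganded receptors and of the DAP kinase family, 1 rose and 0 fell (3.33%, against 3.38% of all genes), with a median log2 fold change of -0.02. The one that rose was E2F1, a cell cycle transcription factor known to induce death genes. It had 103, 101 and 103 CPM with 6-shogaol and 60.4, 62.1 and 69.1 CPM in controls (log2 fold change 0.68, SE 0.07, edgeR adjusted p = 0.00828). E2F1 lost the call without control replicate 2 (adjusted p = 0.055). The kinases related to DAPK1 were not called: DAPK2 had 5.60 ± 0.989 CPM with 6-shogaol and 5.30 ± 0.728 CPM in controls, and DAPK3 74.3 ± 20.9 CPM with 6-shogaol and 78.2 ± 4.96 CPM in controls. DAPK2 and DAPK3 were picked from the list after their values were seen, as relatives of DAPK1. UNC5D, ITGA6, NTNG1, DSCAM and DSCAML1 above were likewise picked after their values were seen, as relatives or partners of genes named here. The list's highest and lowest log2 fold changes, also added after their values were seen, were not called. They were 0.88 for XIAP (SE 0.25, edgeR adjusted p = 0.113) and -0.49 for MAGED1 (SE 0.12, edgeR adjusted p = 0.0768), each without overlap. Groups did not overlap for 8 of the 30 genes, and for 27.9% of all genes.

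Of 14 tested receptors outside the netrin family that have been described as dependence receptors, 2 rose and 0 fell (14.3%, against 3.38% of all genes), with a median log2 fold change of 0.05. ITGB3, the beta subunit of the vitronectin receptor, had 22.3, 24.3 and 23.3 CPM with 6-shogaol and 13.2, 15.3 and 15.3 CPM in controls (log2 fold change 0.68, SE 0.10, edgeR adjusted p = 0.0202). ITGA5, the alpha subunit of the fibronectin receptor, had 213, 202 and 187 CPM with 6-shogaol and 151, 157 and 148 CPM in controls (log2 fold change 0.40, SE 0.07, edgeR adjusted p = 0.0345). Neither gene's groups overlapped. Both kept the call without 6-shogaol replicate 1 and lost it without each of the other 5 libraries, where 0 genes of the list were called. Over all genes those 5 fits called from 98 of 20011 to 174 of 20219, against 651 of 19279 with all libraries.

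Of 23 tested genes of the RGM and BMP system, to which RGMB and NEO1 belong, 1 rose and 2 fell (13.0%, against 3.38% of all genes), with a median log2 fold change of -0.02. ID1 and ID3 encode inhibitors of basic helix-loop-helix factors and are known targets of BMP signalling. ID1 had 369, 394 and 373 CPM with 6-shogaol and 285, 282 and 295 CPM in controls. ID3 had 269, 254 and 251 CPM with 6-shogaol and 334, 351 and 315 CPM in controls. The log2 fold changes were 0.40 for ID1 (SE 0.06, edgeR adjusted p = 0.0197) and -0.37 for ID3 (SE 0.07, edgeR adjusted p = 0.0355), opposite in sign. SMAD6, an inhibitor of BMP signalling, had 16.4, 14.6 and 13.8 CPM with 6-shogaol and 22.2, 26.8 and 20.7 CPM in controls (log2 fold change -0.64, SE 0.13, edgeR adjusted p = 0.049). All 3 calls held without 6-shogaol replicate 1 and were lost without each of the other 5 libraries, where 0 genes of the list were called. Those 5 fits called from 98 of 20011 to 174 of 20219 over all genes, against 651 of 19279 with all libraries. RGMA, the relative of RGMB and picked for that after its values were seen, had 33.9 ± 4.04 CPM with 6-shogaol and 47.0 ± 3.73 CPM in controls, a log2 fold change of -0.47 (SE 0.11) that did not pass (edgeR adjusted p = 0.0693).

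**Figure D4:**
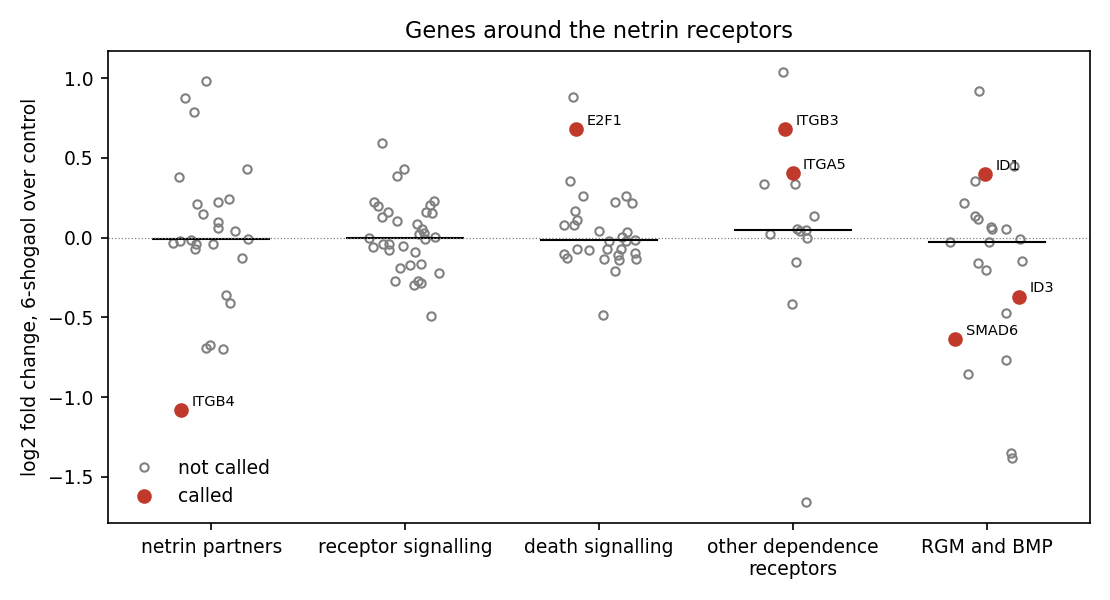
Log2 fold change of 6-shogaol over control for every tested gene of the 5 lists, with called genes filled and named, others as open circles and a line at each list's median. The medians lie between -0.02 and 0.05, and the called genes between -1.08 (ITGB4) and 0.68 (E2F1 and ITGB3).

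The genes whose levels most resembled that of UNC5B over the 6 libraries were sought at a mean level of 5 CPM or more, by the root mean square difference of log2 CPM after subtracting each gene's control mean. The nearest was AKNA, an AT-hook protein of the centrosome, at a difference of 0.16. It was followed by TRIB3, a stress-induced pseudokinase, at 0.19, HACD3, an enzyme of fatty acid elongation, at 0.22, and DDIT4, an inhibitor of mTORC1, at 0.27. ENTPD1-AS1, an antisense RNA, stood at 0.28 and TNFSF18, the ligand of the receptor GITR, at 0.29. UNC5B lay 1.39, 1.84 and 1.28 above its control mean on the log2 scale in 6-shogaol replicates 1, 2 and 3, and AKNA 1.16, 1.52 and 1.20. Each of the 6 genes had its highest level in 6-shogaol replicate 2, as UNC5B had. All were taken for their likeness in these libraries, so this is a description with no test. Since the measure uses the size of the difference between groups, it favours genes with a log2 fold change near that of UNC5B. It also compares library by library, so the shared peak in 6-shogaol replicate 2 is partly built into the choice.

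**Figure D5:**
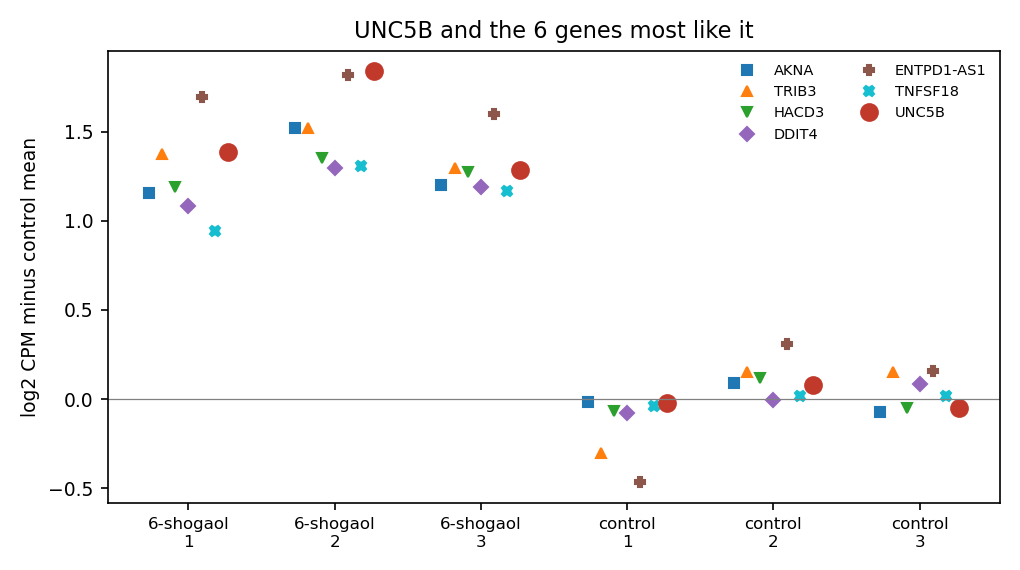
Log2 CPM minus the gene's own control mean, with 1 column of points per library (6-shogaol left, control right), for UNC5B (large red circles) and the 6 genes most like it. UNC5B lies at 1.28 to 1.84 in the 6-shogaol libraries and at -0.05 to 0.08 in the controls.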

How the data were processed

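RNA sequencing covered 3 libraries of U251 cells with 6-shogaol and 3 without, grouped by sample title. Per the labels' protocols, Trizol was used for total RNA and a SMARTER mRNA-Seq kit for the libraries. Aligner, counter and strandedness are not given in the sources used here. The submitters' processing notes name the mouse builds GRCm38 and mm10, but the deposited identifiers are human, and 72.6% of the 58394 found in GENCODE release 29 (GRCh38) have the same span there. The authors deposited raw counts per gene and, per the file headers, FPKM values, in which 0.0001 stands for most zeros.

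The deposited counts were filtered (filterByExpr, 19279 genes kept), scaled by TMM and tested with edgeR 4.0.16 (quasi-likelihood, two-sided, Benjamini-Hochberg over all genes tested, threshold 0.05). SE was computed as |log2 fold change| over the root of F. TMM-scaled CPM is used throughout, except for ranges and sums of marker genes. No library was a copy of another (chi-square over degrees of freedom 31.3 to 63.7 between replicates). Alternatives included other scalings and filters, DESeq2 1.42.0, a replicate block, leaving out each library, and limma 3.58.1 on log2(FPKM + 1) or log2(FPKM + 0.1). Robust moderation and thinned counts were chosen after seeing the data. Scripts were tested on simulated data.

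The genes, lists and promoter elements were chosen with earlier results of these data known. Genes named were the 9 members, up to 3 called genes per direction in each list (with none called, the 2 largest changes from a mean of 5 CPM up), overlapping genes with at least 10 counts on average, and the 6 genes most like UNC5B. A few more, chosen after their values were seen, are marked as such. Marker genes and UNC5B-AS1, which averaged 6 counts, are named outside these rules.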

Additional observations from a re-analysis of the deposited data

How the results depend on the processing

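The UNC5B log2 fold change was 1.52 with all libraries and stayed positive in all 17 alternatives. It was 1.33 to 1.63 without 1 library and 1.19 in limma on log2(FPKM + 1), with or without a filter, where the pseudocount shrinks it. The fold changes of NTN4, NTN1, RGMB and UNC5C kept their sign in all 17, and that of DAPK1 in the 15 that tested it. The difference in mean UNC5B share of UNC5 FPKM, 24.8 percentage points, ran from 22.1 to 26.6 without 1 library and was 23.9 with UNC5D included, an alternative added after seeing the data. By median FPKM 5 of the 7 tested members kept their rank with 6-shogaol and 7 in controls.

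Counts of calls moved more. Over all genes 651 were called, against 98 to 1012 without 1 library (1012 without 6-shogaol replicate 1), 378 with no filter, 1866 in DESeq2 and 277 in limma on FPKM with no filter. The fits without 1 library ranged from 98 of 20011 to 1012 of 19953 genes, and DESeq2 called 12.0% of all genes it tested. Called members numbered 2 of 7, and 1 to 3 without 1 library. Called netrin partners numbered 1 of 26 in each fit without 1 library and 6 of 23 in DESeq2. Signalling genes numbered 0 to 1 of 34 without 1 library and 3 of 34 in DESeq2, and death signalling genes 0 to 2 of 30 and 4 of 30. Other dependence receptors numbered 0 to 3 of 14 or 15 without 1 library and 4 of 13 in DESeq2. RGM and BMP genes numbered 0 to 4 of 23 without 1 library and 7 of 21 in DESeq2. With no filter 1 of 19 dependence receptors and 1 of 28 RGM or BMP genes were called (378 of 32031 over all genes). In limma on FPKM with no filter it was 0 and 1 (277 of 32019 over all genes). The cause of these shifts was not tested.

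Deviations of same-numbered libraries correlated at -0.03, 0.06 and -0.04 across genes. Such values show no strong shared signal by replicate number and cannot tell whether same-numbered libraries were handled as pairs. With the replicate number as a block 3 genes were called, all higher, and 0 of the members or of any list. That fit leaves fewer degrees of freedom. At this depth DCC and UNC5A, with at most 1 count in a library, allow no fold change.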
